A study of Homo sapiens with 12 samples.

Results

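The genes described here are 40 named genes of the MYC and ribosome biogenesis module, chosen by name as MYC and genes for RNA polymerase I transcription, nucleolar proteins, small nucleolar RNPs and the assembly of the small and large ribosomal subunits. No measured value enters this rule, although the topic was chosen with earlier results of these data known. They are 40 of the 60708 genes in the deposited tables, and all 40 were expressed highly enough to be tested under both stressors. RNA-seq was performed on HCT116, a colorectal carcinoma line of human origin listed as WT, in 12 libraries of 24 h treatments. The groups were 3 libraries with oligomycin A (OA), 3 with its own DMSO control, 3 with tunicamycin (TN) and 3 with a separate DMSO control, all labelled as biological replicates of cells kept in RPMI1640 with serum. The labels give 5 µg/mL for OA and for TN, whereas the study's text gives a different dose for OA. OA blocks the mitochondrial ATP synthase. TN blocks N-linked glycosylation and thereby burdens protein folding in the ER. All groups come from a single cell line, and the responses of other cells were not measured.

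MYC is a transcription factor that pairs with MAX and binds the E-box CACGTG, and genes for making ribosomes are among its best known targets. Ribosome assembly starts in the nucleolus, where RNA polymerase I transcribes the ribosomal RNA precursor. Small nucleolar RNPs then modify that precursor, and assembly factors fold and cut it into the small and the large subunit. The pathway consumes much of the energy of a growing cell, and it is known to be turned down by many kinds of stress.

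Library totals ranged from 9884124 to 24983573 counts, and the treated libraries (9884124 to 13719776) lay below or near the lowest DMSO library (12618634). Of 8 epithelial markers, EPCAM, CDH1, KRT8, KRT18 and KRT19 were detected in every library at 560 counts or more, whereas VIL1, CDX1 and LGALS4 did not exceed 3 counts in any library. PTPRC and CD3E, markers of leukocytes, did not exceed 1 count. The signal recognition particle RNA RN7SL1 took 6.02 to 8.11% of the counts in the DMSO libraries and more in every treated library, 8.4 to 17.9% under OA and 9.22 to 13.3% under TN. With RN7SL and RN7SK genes removed before scaling, the median log2 fold change of the members was -0.64 under OA and -0.73 under TN, and 1 and 6 members were called lower, against 1 and 7 with these genes kept. Within the treated groups its share was highest in OA 2 and TN 1. The mean GC content of protein-coding counts was 51.0% in OA 2 and 50.4% in TN 1, against 47.4 to 49.98% in the DMSO libraries.

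Because MYC binds CACGTG, the promoter windows of the members were searched for it. The windows run from 250 bases before to 50 bases after each start site in RefSeq (GRCh38.p14), and 33 of the 40 members had at least 1 window, 9 of them several. A gene was counted as carrying the letters CACGTG, which read the same on both strands, if any of its windows held them. This was so for 13 of 33 members (39.4%), for 12.5% of 10566 tested genes and for 8.78% of all 27305 genes with a window. The 13 members were WDR43, RRP9, GNL3, NOP14, LYAR, GAR1, BYSL, DDX21, NOP2, UTP20, UTP4, FBL and PES1, of which GNL3, LYAR, GAR1 and DDX21 carry it in only 1 of 2 windows. The 250 bases before the start site are shown for 3 members that are named again below. UTP20 had the lowest level under OA relative to its control and carries the motif. UTP4, which carries it too, had one of the widest gaps between the stressors, although the 95% interval of that gap includes 0. NCL was low under both stressors without the motif in its window. Capitals mark CACGTG, and the sequences read 5′ to 3′ on the strand of the gene.
UTP20, chr12:101279855-101280104, plus strand: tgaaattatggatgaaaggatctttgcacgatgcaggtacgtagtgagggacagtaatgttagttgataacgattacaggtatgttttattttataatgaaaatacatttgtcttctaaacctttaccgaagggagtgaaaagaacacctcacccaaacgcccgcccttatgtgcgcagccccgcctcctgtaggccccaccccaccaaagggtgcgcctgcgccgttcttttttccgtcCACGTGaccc
UTP4, chr16:69132399-69132648, plus strand: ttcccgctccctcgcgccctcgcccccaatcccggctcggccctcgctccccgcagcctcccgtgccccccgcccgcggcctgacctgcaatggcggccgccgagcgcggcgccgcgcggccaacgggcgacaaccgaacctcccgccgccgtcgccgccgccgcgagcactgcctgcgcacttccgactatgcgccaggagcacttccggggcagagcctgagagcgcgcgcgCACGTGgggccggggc
NCL, chr2:231464485-231464734, minus strand: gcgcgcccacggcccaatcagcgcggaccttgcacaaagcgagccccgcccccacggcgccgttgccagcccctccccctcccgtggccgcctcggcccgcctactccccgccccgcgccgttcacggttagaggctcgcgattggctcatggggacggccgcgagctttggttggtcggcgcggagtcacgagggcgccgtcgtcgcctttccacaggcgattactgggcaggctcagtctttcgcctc
In UTP20 the first base of the motif lies at -10 from the start site, and in UTP4 it lies at -16. The NCL window has no match, which says only that these letters are not in it. The 13 members with the motif had a median log2 fold change of -0.47 under OA and -0.67 under TN. For the 20 members with no match in any window, the medians were -0.65 and -0.74.

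As a whole, the members were lower in stressed cells. Levels are given as counts per 1000000 library counts (CPM) after TMM normalization, and fold changes as treated over DMSO. Under OA the 40 members accounted for 0.472% ± 0.168 (SD, n = 3) of the counts, against 0.843% ± 0.0511 (SD, n = 3) in the matching controls. In the TN experiment, their share was 0.855% ± 0.0443 (SD, n = 3) in DMSO and 0.460% ± 0.102 (SD, n = 3) under TN. In neither experiment did the shares of treated and DMSO libraries overlap, since the highest treated value was 0.622% and the lowest DMSO value 0.798%. In bulk RNA, fewer cells of a kind and less RNA per cell cannot be told apart.

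Under OA, 39 of 40 members had a fitted level below the control, compared with 51.2% of the 14681 genes tested. Their median log2 fold change was -0.64, and that of all genes was -0.02. In 21 members (52.5%) every OA library lay below every DMSO library, which held for 15.5% of all genes. However, 1 member passed an adjusted p of 0.05 as lower (edgeR, quasi-likelihood F test, p adjusted by the Benjamini-Hochberg method), namely UTP20, and the background of genes called lower was 1.72%. With an unadjusted p under 0.05, 15 members were lower, against 10.3% of all genes. DESeq2 called 4 members lower (5.31% of all genes). In edgeR 11 were called with the GC offset described below (7.79%) and 20 with the replicate number as a block (15%).

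Under TN, 39 of 40 members were again below the control, compared with 51.9% of the 14432 genes tested, with a median log2 fold change of -0.74 against -0.03 for all genes. Every TN library lay below every DMSO library in 27 members (67.5%), and in 16.8% of all genes. MYC, POLR1B, NCL, NOLC1, NOP56, DKC1 and UTP20 fell by the same test, which makes 7 of 40 members against a background of 3.34%. With an unadjusted p under 0.05, 24 members were lower, against 12.1% of all genes. With the replicate number as a block 29 members fell, including all 7, against a background of 15.3%. The labels number the replicates but do not state that same-numbered libraries are pairs. TN 2 correlated slightly better with TN DMSO 3 (0.44) than with the control of its own number (0.41). No member was called higher in either comparison by edgeR or DESeq2, where edgeR's adjusted p called 2.76% of all genes higher for OA and 3.65% for TN. At an unadjusted p under 0.05 in edgeR 0 members were higher, against 13% of all genes for OA and 12.2% for TN. These counts depend on single libraries. Without 1 library at a time, between 0 and 4 members were called lower under OA and between 0 and 19 under TN. The 19 arose without TN 1, and the count was 0 without TN DMSO 2, TN DMSO 3 or TN 3, 2 without TN 2 and 3 without TN DMSO 1. For OA the count was 0 without OA 3 or any one of the controls, 4 without OA 1 and 2 without OA 2. Each of the 7 TN calls held without TN 1.

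**Figure D1:**
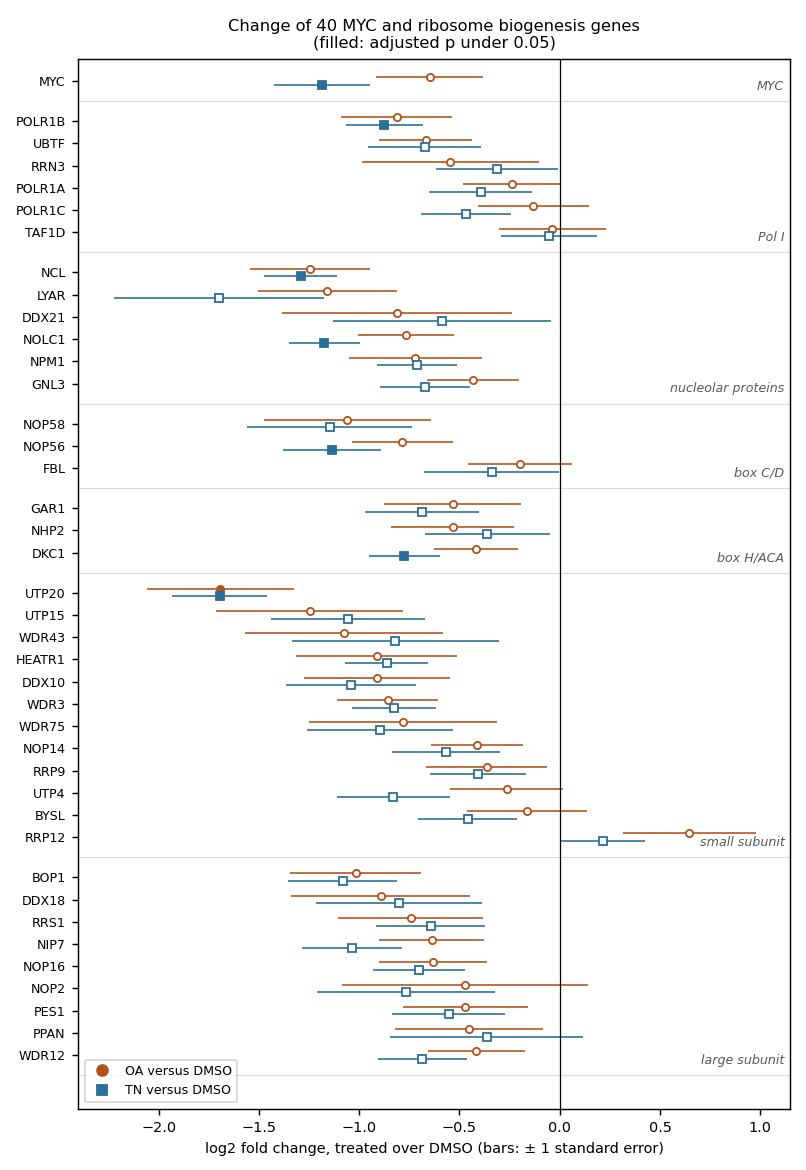
Log2 fold change (treated over DMSO) of each of the 40 members under OA (circles) and TN (squares), grouped by role, with bars of 1 standard error and filled symbols for an adjusted p under 0.05 in edgeR. In each comparison 39 members lie left of 0, and RRP12 lies right of 0 in both.

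MYC itself lies at chr8:127735434-127742951 (hg38, plus strand). MYC read 185, 244 and 188 CPM in the DMSO libraries of OA and 139, 95.4 and 159 CPM under OA. All OA libraries were below all controls, and OA 2 was the lowest. The log2 fold change of MYC under OA was -0.65 (SE 0.27, edgeR, Benjamini-Hochberg adjusted p = 0.196), which did not pass. In the TN experiment MYC read 257, 206 and 198 CPM in DMSO and 122, 90.0 and 78.6 CPM under TN. The highest TN library was thus well below the lowest control. MYC fell by 1.19 on the log2 scale, to 43.9% of DMSO (SE 0.24, edgeR, Benjamini-Hochberg adjusted p = 0.0292). The call held under 10 of 10 other settings (Benjamini-Hochberg adjusted p between 2.29e-05 and 0.0263 in edgeR and DESeq2), but of the 6 fits that left out a library it held only in the one without TN 1, with log2 fold changes between -1.34 and -1.06.

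**Figure D2:**
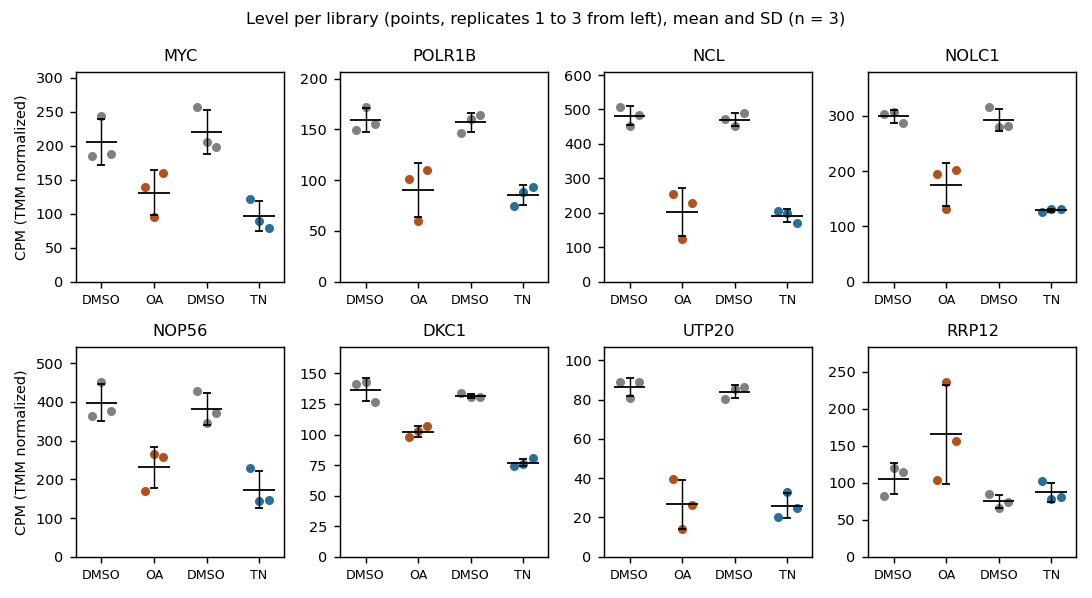
CPM of 8 members in each library (points), with the group mean and SD (n = 3), for the OA experiment (first pair in each panel) and the TN experiment (second pair). MYC, POLR1B, NCL, NOLC1, NOP56, DKC1 and UTP20 have every treated library below every DMSO library of the same experiment, and RRP12 does not.

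RNA polymerase I and its factors were the group closest to the controls. The 6 members had a median log2 fold change of -0.39 under OA and -0.43 under TN, and 0 and 1 of them passed edgeR's adjusted p (1.72% and 3.34% of all genes were called lower). At an unadjusted p under 0.05, 2 and 2 of them were lower (10.3% and 12.1% of all genes), and DESeq2 called 0 and 1 (5.31% and 7.15%). POLR1B, the second largest subunit of the enzyme, read 150, 172 and 155 CPM in DMSO and 101, 60.3 and 110 CPM under OA. In the TN experiment POLR1B read 146, 160 and 164 CPM in DMSO and 74.5, 88.7 and 93.8 CPM under TN. Both stressors left POLR1B below all its controls. It fell by 0.87 on the log2 scale under TN (SE 0.19, edgeR, Benjamini-Hochberg adjusted p = 0.0389, between 0.000438 and 0.0575 over its alternatives), and its log2 fold change under OA was -0.81 (SE 0.28, edgeR, Benjamini-Hochberg adjusted p = 0.128). UBTF, which opens ribosomal DNA for transcription, had 62.9% of its DMSO level under OA and 62.7% under TN, with no overlap between treated and control libraries. UBTF and POLR1C, a subunit shared with RNA polymerase III, missed the threshold under TN without the replicate block and fell with it (log2 fold changes of -0.68 and -0.47, edgeR, Benjamini-Hochberg adjusted p = 0.0137 and 0.0413). With the block under OA, UBTF and POLR1B fell (edgeR, Benjamini-Hochberg adjusted p = 0.0247 and 0.0242) and POLR1C did not (0.567). UBTF also fell under both stressors with the GC offset described below (edgeR, Benjamini-Hochberg adjusted p = 0.0246 under OA and 0.0152 under TN). RRN3, which recruits the polymerase, varied between libraries. It read 150, 38.7 and 112 CPM under OA and 76.9, 155 and 167 CPM under TN, so that OA 2 and TN 1 were the low ones. TAF1D, a subunit of the promoter selectivity factor SL1, had log2 fold changes of -0.04 and -0.05, which become 0.60 under OA and 0.31 under TN when GC content is modelled. POLR1A, the largest subunit, had log2 fold changes of -0.24 and -0.39, and its treated libraries overlapped the controls.

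The abundant nucleolar proteins included some of the lowest members. NCL, nucleolin, binds the ribosomal RNA precursor and is among the most abundant nucleolar proteins. It read 507, 452 and 485 CPM in DMSO and 255, 125 and 229 CPM under OA. NCL read 471, 451 and 489 CPM in the other DMSO group and 206, 199 and 171 CPM under TN. The treated libraries of NCL were far below the controls under either stressor. NCL fell by 1.29 on the log2 scale under TN (SE 0.18, edgeR, Benjamini-Hochberg adjusted p = 0.0094), and under OA its log2 fold change of -1.25 (SE 0.30) came with a Benjamini-Hochberg adjusted p of 0.0561 in edgeR. NCL passed under OA in 7 of 10 alternatives (edgeR and DESeq2, Benjamini-Hochberg adjusted p between 0.00309 and 0.0944). NOLC1, a chaperone of snoRNPs, read 316, 280 and 282 CPM in DMSO and 126, 131 and 131 CPM under TN, the tightest treated group of its class. NOLC1 fell by 1.18 on the log2 scale (SE 0.18, edgeR, Benjamini-Hochberg adjusted p = 0.0115). Under OA, NOLC1 read 194, 131 and 201 CPM against 303, 307 and 286 CPM, a log2 fold change of -0.77 (SE 0.24, edgeR, Benjamini-Hochberg adjusted p = 0.108).

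LYAR, a nucleolar protein linked to precursor processing, had the lowest point estimate of all members under TN, with a log2 fold change of -1.70 (SE 0.52), but did not pass (edgeR, Benjamini-Hochberg adjusted p = 0.0965, and 0.00173 with the replicate block). It read 37.5, 63.1 and 69.1 CPM in DMSO and 5.69, 24.3 and 22.1 CPM under TN. TN 1 was far below the other TN libraries, and its same-numbered control was the lowest of the controls. Under OA, LYAR read 31.7, 12.97 and 22.6 CPM against 57.3, 45.7 and 47.5 CPM (edgeR, Benjamini-Hochberg adjusted p = 0.0948, and 0.00444 with the replicate block). NPM1, nucleophosmin, was by far the most abundant member, with 2253, 1843 and 1869 CPM in DMSO and 1699, 696 and 1224 CPM under OA. NPM1 read 2251, 2145 and 2336 CPM in the TN controls and 1107, 1433 and 1572 CPM under TN. Its log2 fold change was -0.72 under OA and -0.71 under TN. With the replicate block it fell under both (edgeR, Benjamini-Hochberg adjusted p = 0.0291 under OA and 0.00539 under TN). With GC content modelled, the log2 fold changes of NPM1 were -0.35 and -0.41. GNL3, nucleostemin, had 74.1% of its DMSO level under OA and 62.8% under TN. Its log2 fold changes of -0.43 and -0.67 became -0.14 and -0.49 with GC content modelled. The RNA helicase DDX21 showed a wide spread between replicates, with 346, 146 and 213 CPM in the OA controls and 256, 51.6 and 93.3 CPM under OA. GNL3 and DDX21 missed the threshold under TN without the replicate block and fell with it (edgeR, Benjamini-Hochberg adjusted p = 0.0136 and 0.0389). With the block under OA, DDX21 fell (edgeR, Benjamini-Hochberg adjusted p = 0.0103) and GNL3 did not (0.117).

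Box C/D snoRNPs place 2′-O-methyl groups on ribosomal RNA, and their core proteins are NOP56, NOP58 and FBL. NOP56 read 363, 451 and 377 CPM in DMSO and 170, 265 and 256 CPM under OA, and 427, 346 and 372 CPM in DMSO and 230, 145 and 146 CPM under TN. No treated library of NOP56 reached its controls. It fell by 1.14 on the log2 scale under TN (SE 0.25, edgeR, Benjamini-Hochberg adjusted p = 0.0374), with a log2 fold change of -0.79 (SE 0.25, edgeR, Benjamini-Hochberg adjusted p = 0.113) under OA. Its partner NOP58 had 48.0% of its DMSO level under OA and 45.2% under TN, but with standard errors of 0.42 and 0.41 it missed the threshold in both comparisons. NOP58 fell under OA and TN with the replicate block (edgeR, Benjamini-Hochberg adjusted p = 0.0044 and 0.00316). With GC content modelled it also fell under OA and TN (edgeR, Benjamini-Hochberg adjusted p = 0.0314 and 0.0125). FBL, fibrillarin, the methyltransferase of the complex, stayed nearer to the controls. FBL read 111, 152 and 117 CPM in DMSO and 84.0, 130 and 118 CPM under OA, which overlap, and had log2 fold changes of -0.20 under OA and -0.34 under TN. Box H/ACA snoRNPs convert uridine to pseudouridine. Their catalytic subunit DKC1, dyskerin, read 141, 143 and 126 CPM in DMSO and 97.7, 103 and 107 CPM under OA. DKC1 read 134, 131 and 131 CPM in the TN controls and 74.6, 75.9 and 80.5 CPM under TN. These were among the most even values of any member. DKC1 fell by 0.77 on the log2 scale under TN (SE 0.18, edgeR, Benjamini-Hochberg adjusted p = 0.0427), and under OA its log2 fold change was -0.42 (SE 0.21, edgeR, Benjamini-Hochberg adjusted p = 0.269). The call for DKC1 was lost without the filter on low counts (edgeR, Benjamini-Hochberg adjusted p = 0.0847) and with TMM factors computed without RN7SL and RN7SK, with a range of 0.000623 to 0.0847 over its alternatives. The core proteins GAR1 and NHP2 had log2 fold changes of -0.53 and -0.53 under OA and of -0.69 and -0.36 under TN. GAR1 was counted at a low level, with 44 to 185 counts per library.

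Assembly factors of the small subunit gave the lowest member under OA. UTP20 (chr12:101280105-101386618, plus strand) is a scaffold protein of the small subunit processome. In the edgeR fits that called 1 member lower under OA and 7 under TN, it was the only one called in both. With the GC offset described below, 10 members were called lower under both stressors. UTP20 read 89.0, 80.9 and 88.9 CPM in DMSO and 39.5, 14.4 and 26.1 CPM under OA. It read 80.5, 85.5 and 86.2 CPM in the other controls and 20.1, 32.7 and 24.9 CPM under TN. The highest treated library (39.5 CPM) was far below the lowest control (80.5 CPM). UTP20 fell by 1.69 on the log2 scale under OA (SE 0.36, edgeR, Benjamini-Hochberg adjusted p = 0.0429) and fell by 1.70 under TN (SE 0.24, edgeR, Benjamini-Hochberg adjusted p = 0.00906), to 30.9% of DMSO in both. The OA call was lost with scaling to total counts (edgeR, Benjamini-Hochberg adjusted p = 0.0825), and it held without OA 1 or OA 2 but not without OA 3 or any one of the controls.

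The other factors of this class were spread widely. UTP15 and WDR43, which act early in the processome, had 42.1% and 47.4% of their DMSO level under OA and 48.2% and 56.7% under TN. UTP15 read 40.6, 10.5 and 25.8 CPM under OA against 74.3, 44.3 and 64.4 CPM in DMSO, and OA 2 was again the lowest library. WDR3, WDR75, HEATR1 and DDX10, all components of the processome or its helicases, had log2 fold changes between -0.91 and -0.78 under OA and between -1.04 and -0.83 under TN. With GC content modelled, their log2 fold changes lay between -0.74 and -0.45 under OA and between -0.80 and -0.57 under TN. HEATR1 missed the threshold narrowly under TN, with 315, 277 and 282 CPM in DMSO and 129, 174 and 179 CPM in treated cells (edgeR, Benjamini-Hochberg adjusted p = 0.0503, passing in 5 of 10 alternatives). UTP4 had log2 fold changes of -0.27 under OA and -0.83 under TN. NOP14, RRP9 and BYSL had log2 fold changes between -0.41 and -0.17 under OA and between -0.57 and -0.41 under TN, and their TN libraries overlapped the controls. With the replicate block, 9 of 12 small subunit factors fell under TN (15.3% of all genes), all except RRP9, BYSL and RRP12. Under OA, 7 of the 12 fell with the block (15% of all genes). RRP12, which takes part in the maturation and export of pre-ribosomes, was the only member with a fitted level above the controls. RRP12 read 82.3, 120 and 115 CPM in DMSO and 104, 236 and 156 CPM under OA, which overlap, with OA 2 the highest. In the TN experiment RRP12 read 84.3, 66.1 and 74.5 CPM in DMSO and 102, 78.3 and 80.8 CPM under TN. Its log2 fold changes of 0.65 (SE 0.33, edgeR, Benjamini-Hochberg adjusted p = 0.285) and 0.21 (SE 0.21, edgeR, Benjamini-Hochberg adjusted p = 0.588) did not pass.

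Assembly factors of the large subunit were lower in all 9 cases under both stressors, and 0 of 9 passed edgeR's adjusted p in either comparison (1.72% and 3.34% of all genes were called lower). At an unadjusted p under 0.05, 3 and 5 were lower (10.3% and 12.1% of all genes), and DESeq2 called 0 and 2 (5.31% and 7.15%). PES1, BOP1 and WDR12 form the PeBoW complex that processes the large subunit RNA. BOP1 read 202, 391 and 259 CPM in DMSO and 103, 135 and 183 CPM under OA, and 258, 186 and 183 CPM in DMSO and 132, 80.0 and 84.1 CPM under TN. Its treated libraries did not reach the controls. The log2 fold change of BOP1 was -1.02 (SE 0.33) under OA and -1.08 (SE 0.27, edgeR, Benjamini-Hochberg adjusted p = 0.0572) under TN. BOP1 passed under OA in 5 of 10 alternatives (edgeR and DESeq2, Benjamini-Hochberg adjusted p between 0.00637 and 0.117) and under TN in 9 of 10 alternatives (edgeR and DESeq2, Benjamini-Hochberg adjusted p between 3.95e-05 and 0.0517), among them the replicate block (0.00131). PES1 had 72.1% of its DMSO level under OA and 68.1% under TN, and WDR12 had 75.0% and 62.1%. With GC content modelled, WDR12 had log2 fold changes of -0.0028 under OA and -0.41 under TN, so that its lower level under OA depends on this choice, whereas PES1 fell under both (edgeR, Benjamini-Hochberg adjusted p = 0.0456 and 0.0136). NIP7 read 97.3, 108 and 118 CPM in DMSO and 37.2, 62.1 and 58.3 CPM under TN, a log2 fold change of -1.03 (SE 0.25, edgeR, Benjamini-Hochberg adjusted p = 0.0511, passing in 6 of 10 alternatives). DDX18, a helicase, RRS1, which brings the 5S RNP to the pre-ribosome, and NOP16 had log2 fold changes between -0.89 and -0.63 under OA and between -0.80 and -0.64 under TN. With the replicate block, 7 of 9 large subunit factors fell under TN (15.3% of all genes), all except NOP2 and PPAN. Under OA, 4 of the 9 fell with the block (15% of all genes). NOP2, a methyltransferase of the large subunit RNA, was listed at only 6 to 40 counts per library. In the annotation 54.4% of its exon bases also belong to a read-through gene on the same strand, and reads that fall in both can be lost from either. PPAN shares 49.2% of its exon bases with other genes on its strand, mainly the read-through PPAN-P2RY11, which was listed at 0 in all 12 libraries. The levels of NOP2 and PPAN are therefore uncertain. POLR1C, NHP2, NOP14, WDR3, HEATR1, NOP16 and NIP7 share between 17.1% and 28.0% of their exon bases with genes on the opposite strand, and whether the counting used the strand is not stated in the sources used here. NPM1 and RRN3 have closely related pseudogenes that could take part of their reads.

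**Figure D3:**
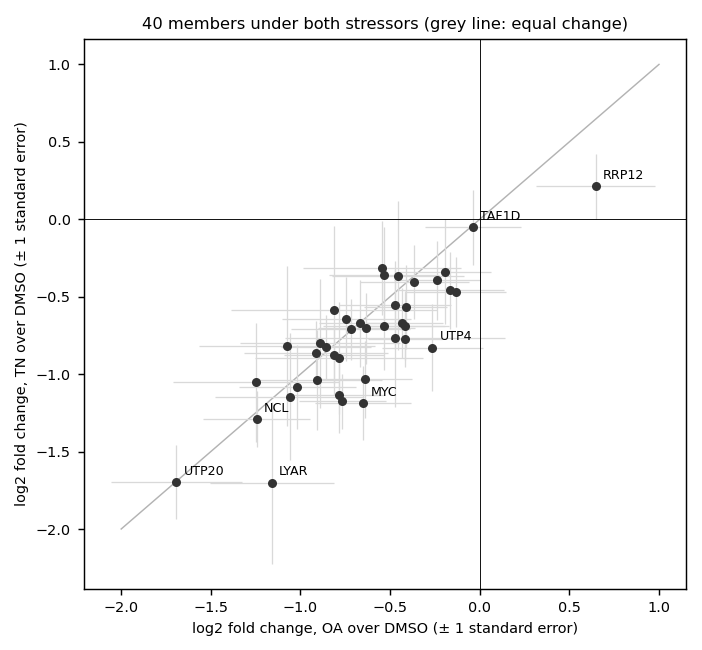
Log2 fold change of each member under OA (horizontal axis) and under TN (vertical axis), with bars of 1 standard error and a grey line of equal change. UTP20 lies at -1.69 and -1.70, and all 40 members have the same sign under both stressors.

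The changes under OA and TN were then compared, each against its own controls, which are different libraries. All 40 members had the same sign in both, as did 81.1% of the 14071 genes tested in both. In 20 members every treated library lay below every control in both comparisons, which held for 10.2% of these genes, and 1 member was called lower in both, against 1.10%. Across the 40 members Pearson's r between the changes was 0.85, a description over genes that share libraries and are not independent. In a fit of all 12 libraries, the difference of the 2 changes was tested for every gene. Of 15429 genes, 0 passed an adjusted p of 0.05 in edgeR (348 or 2.26% had an unadjusted p under 0.05, and DESeq2 called 2), which gives a background of 0%, and 0 of 40 members had an unadjusted p under 0.05 or a call in DESeq2. The widest gaps were those of UTP4 and MYC, whose fitted fall was smaller under OA than under TN. The OA change minus the TN change was 0.49 on the log2 scale for UTP4 (95% interval -0.29 to 1.28) and 0.49 for MYC (-0.30 to 1.28). The intervals of all 40 members include 0 and span between 1.04 and 3.99 on the log2 scale. They do not show that the stressors act alike, since for UTP20, with a difference of -0.05, the interval still runs from -1.11 to 1.01.

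The size of the change differed between libraries and with the base composition of the gene. The median member stood at -0.56, -0.89 and -0.47 (log2 relative to the mean of the DMSO libraries) in OA 1, OA 2 and OA 3, and at -0.83, -0.74 and -0.71 in TN 1, TN 2 and TN 3. Each of the 6 treated libraries was thus below the DMSO libraries, whose medians lay between -0.06 and 0.09. In OA 2 the 20 members of lower GC content had a median of -1.92 and the 20 of higher GC content -0.23. The same split in TN 1 gave -1.18 and -0.24. In OA 1 (-0.43 and -0.66), OA 3 (-0.70 and -0.40), TN 2 (-0.69 and -0.77) and TN 3 (-0.61 and -0.91), both sets were closer together. Across members, Pearson's r between GC content and log2 fold change was 0.38 for OA and 0.32 for TN.

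When the GC content was modelled as an offset, the median of the members was -0.63 under OA and -0.66 under TN, and r was -0.11 and -0.04. With this offset 11 members fell under OA, against a background of 7.79%, namely UBTF, NCL, NOLC1, LYAR, NOP56, NOP58, NHP2, UTP15, UTP20, BOP1 and PES1, and 23 fell under TN, against 10.7%. Among them were UTP20 and all 7 members called under TN without the offset, and 10 members were called lower under both stressors, against 6.06% of the genes tested in both. The part of RNA quality or library preparation in these differences was not tested.

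**Figure D4:**
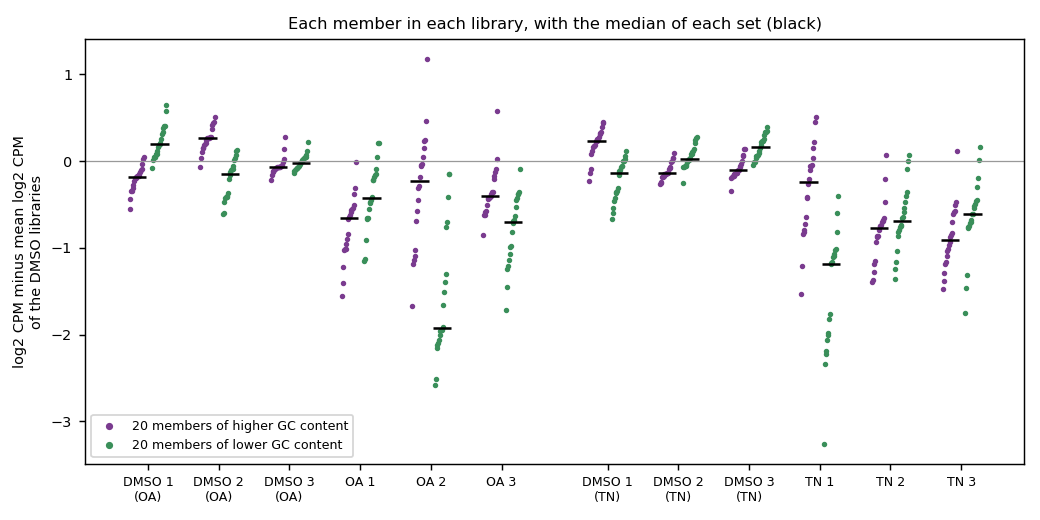
Log2 CPM of each member in each library minus its mean over the 3 DMSO libraries of that experiment, split at the median GC content of the members (45.4%) into 20 of higher and 20 of lower GC content, with the median of each set in black. In OA 2 and TN 1 the lower GC members lie far below the higher GC members (-1.92 against -0.23, and -1.18 against -0.24), while all treated libraries have medians below 0.

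Other lists of the pathway were described in the same way, with the genes called lower as a share of all tested genes at 1.72% for OA and 3.34% for TN. Of 39 further small subunit factors, 35 were below the control under OA and 37 under TN, with 1 called, under TN. TSR1, a late small subunit factor, fell under TN from 195 ± 28.8 to 100.4 ± 10.3 CPM (SD, n = 3, edgeR, Benjamini-Hochberg adjusted p = 0.0354). Of 47 further large subunit factors, 43 were below the control under each stressor, with 1 and 4 called lower. Among these, URB2 fell under both, with log2 fold changes of -1.13 under OA and -1.28 under TN (edgeR, Benjamini-Hochberg adjusted p = 0.0458 and 0.0117). RRP1B and DDX55 fell under TN, with log2 fold changes of -1.22 and -1.09 (edgeR, Benjamini-Hochberg adjusted p = 0.0142 and 0.0216).

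The remaining machinery followed the same direction in most genes. Of 10 partners of RNA polymerase I, 8 were lower under each stressor, and POLR1G fell under TN from 49.0 ± 2.49 to 18.6 ± 1.33 CPM (SD, n = 3, edgeR, Benjamini-Hochberg adjusted p = 0.0087). Of 13 snoRNP assembly genes, 11 and 12 were lower, and NUFIP1, SHQ1 and TCOF1, treacle, which links RNA polymerase I to snoRNPs, fell under TN. TCOF1 had log2 fold changes of -0.96 under OA and -1.46 under TN (edgeR, Benjamini-Hochberg adjusted p = 0.0616 and 0.0330). In the RNA exosome, which trims precursor ends, 11 and 12 of 14 genes were lower. Its subunit EXOSC9 fell under both stressors, from 102.6 ± 6.81 to 35.1 ± 7.02 CPM under OA and from 110.6 ± 15.8 to 30.9 ± 5.23 CPM under TN (SD, n = 3). EXOSC3 and EXOSC2 fell under TN. Of RNA polymerase III and its factors, 15 and 18 of 22 were lower, and GTF3C4 alone was called, under TN (log2 fold change -0.80, edgeR, Benjamini-Hochberg adjusted p = 0.0478).

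Genes around MYC did not share a direction. In the MYC network, 10 of 17 tested genes were above the control under OA and 9 of 17 under TN. MXD1, which competes with MYC for MAX, read 0.682, 1.74 and 2.29 CPM in DMSO and 8.78, 20.2 and 6.01 CPM under OA. It read 2.74, 3.99 and 2.60 CPM in DMSO and 7.16, 10.97 and 9.27 CPM under TN. MXD1 thus rose under both stressors, by 2.88 and 1.55 on the log2 scale (edgeR, Benjamini-Hochberg adjusted p = 0.0396 and 0.0272), from only 13 to 202 counts per library. MYCL, a paralog of MYC, rose under TN by 1.33 (SE 0.27, edgeR, Benjamini-Hochberg adjusted p = 0.0303). CIP2A, which protects the MYC protein from dephosphorylation, fell under both, with log2 fold changes of -2.11 and -1.94 (edgeR, Benjamini-Hochberg adjusted p = 0.0456 and 0.0461).

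Of 27 further known MYC targets, among them the nucleolar MYBBP1A and PA2G4, 25 were lower under each stressor, with 3 and 5 called. CDC25A, a phosphatase that starts DNA replication, fell from 90.7 ± 10.3 to 23.1 ± 7.99 CPM under OA and from 80.0 ± 5.87 to 11.5 ± 3.29 CPM under TN (SD, n = 3). HSPE1, a mitochondrial chaperonin, fell by 1.72 and 1.57 on the log2 scale (edgeR, Benjamini-Hochberg adjusted p = 0.0168 and 0.00783), and PTMA fell by 1.21 under TN. The log2 fold change of PTMA under OA was -1.32 and did not pass (edgeR, Benjamini-Hochberg adjusted p = 0.0665). In the list of the 5S RNP and the p53 axis, through which cells sense faulty ribosome assembly, 7 and 8 of 11 genes were higher, with 3 and 1 called higher, against 2.76% and 3.65% of all genes. SESN2 rose under both stressors, with log2 fold changes of 3.49 and 2.94 (edgeR, Benjamini-Hochberg adjusted p = 0.0157 and 0.00716). GADD45A and CDKN1A rose under OA. Under TN their log2 fold changes of 1.11 and 1.23 did not pass (edgeR, Benjamini-Hochberg adjusted p = 0.0565 and 0.0747). Several of these genes are also known to respond to other stress pathways. Of 18 RNAs listed for processing, 8 could be tested. This list also holds the telomerase RNA TERC and the RNase P RNA RPPH1, so not all of its RNAs act on the ribosomal RNA precursor. Of the 8 tested RNAs, 5 were below the control under each stressor, with medians of -0.47 and -0.46, and 1 was called, as higher under OA. SNORA73B rose under OA from 368 ± 31.4 to 917 ± 261 CPM (SD, n = 3), and under TN it read 931 ± 406 CPM (SD, n = 3) against 368 ± 68.2 CPM (edgeR, Benjamini-Hochberg adjusted p = 0.0570, and 0.00222 with the replicate block).

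Each gene named in these lists changed in the same direction under both stressors, also where it was called under a single stressor. Of all genes tested in both, 81.1% shared their direction. The calls named in these lists rested on few libraries. Those of CDC25A and SESN2 under TN held in all 6 fits that left out a library, that of EXOSC9 under TN held in 5, and each of the OA calls was lost when any one of the DMSO libraries was left out. Each of the TN calls held without TN 1. With the GC offset, the calls of GTF3C4, SHQ1 and HSPE1 under TN and of EXOSC9 under OA were lost, and with scaling to total counts those of CIP2A under both stressors and of MXD1 under TN. Without the filter on low counts, the TN calls of GTF3C4, SHQ1 and EXOSC3 were lost, and with all 12 libraries in 1 fit those of SHQ1 and MXD1.

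**Figure D5:**
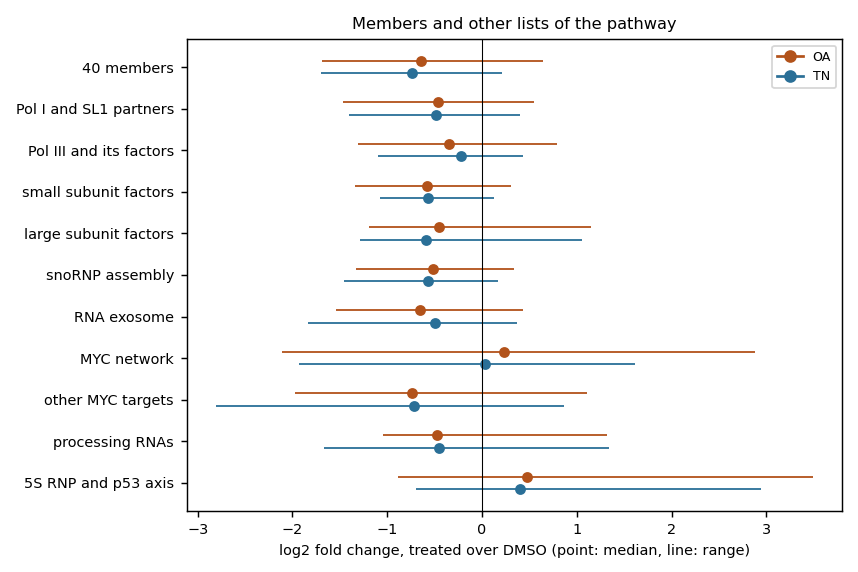
Median (point) and range (line) of the log2 fold change, treated over DMSO, for the 40 members and for 10 other lists of the pathway under OA and TN. The members have medians of -0.64 and -0.74, and the MYC network and the list of the 5S RNP and the p53 axis have medians above 0 in both comparisons.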

How the data were processed

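RNA-seq counts of 12 HCT116 libraries in 4 groups of 3 were used. Reads were aligned to hg38 with STAR by the authors, who deposited raw counts per gene (Gencode annotation). The strand column is not stated in the sources used here, so overlapping genes on opposite strands are uncertain. The labels name a stranded total RNA kit, and the study's text speaks of mRNA-seq. The deposited tables also hold the authors' DESeq2 comparisons with log2 fold changes, p-values and scores, and their mean normalized levels, which were not used.

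No measured value enters the rule for the members, but the topic, the members and the lists were chosen with earlier results of these data known. All 40 members are named by role. Of each other list, at most 3 genes with an adjusted p under 0.05 under OA or TN are named, lowest p first. Genes passing filterByExpr were normalized by TMM and tested two-sided with edgeR 4.0.16 (quasi-likelihood, R 4.3.3) and Benjamini-Hochberg adjustment, separately per stressor. The SE was derived from the fold change and its F statistic. DESeq2 1.42.0 was an alternative. Alternatives also covered scaling, filters, a GC offset, a replicate block, all libraries in 1 fit and leaving out each library. The fits were also run on simulated data. These held no GC effect, no pairing and no outlying library, so they do not bear on those features of the data.

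Deviations of same-numbered TN and DMSO libraries correlated at 0.64, 0.41 and 0.43, so the TN numbers were treated as pairs. However, TN 2 correlated slightly better with DMSO 3 (0.44) than with its own number and TN 3 nearly as well with DMSO 2 (0.38). No 2 libraries of a group agreed within sampling noise (chi-square per gene at least 5.92). GC content, exon lengths, overlaps and gene coordinates come from Gencode models of hg38 in a later release than that of the authors, and promoter windows from RefSeq (GRCh38.p14). Totals were 9884124 to 24983573 counts per library, and counting error adds to the spread between the 3 replicates for genes of low counts such as NOP2 and MXD1.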

Additional observations from a re-analysis of the deposited data

How the results depend on the processing

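No member was called higher under any setting tried, and the median log2 fold change of the members stayed below 0 under all of them. With 1 library left out at a time, the OA median lay between -0.68 and -0.55, and the TN median between -0.84 and -0.68. The TN median was -0.88 with scaling to total counts, -0.66 with the GC offset and -0.67 with the GC offset and the replicate block. Scaling to total counts moved the median of all genes to -0.23 under OA and -0.18 under TN.

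The number of calls moved far more. For OA, 658 genes were called, against 1927 with DESeq2, 1572 without a filter, 3914 with the replicate block, 2398 with the GC offset, 3800 with both and 1681 with all 12 libraries in 1 fit, and between 3 and 1179 without 1 library. Members called lower under OA numbered 1, against 4 with DESeq2, 5 without a filter, 2 with at least 10 counts in every library, 20 with the block, 11 with the GC offset, 20 with both and 7 with all libraries (1.72% of all genes, against 5.31%, 2.4%, 2.13%, 15%, 7.79%, 13% and 5.11%), and between 0 and 4 without 1 library. For TN, 1009 genes were called, against 2162 with DESeq2, 1648 without a filter, 3915 with the block, 3171 with the GC offset and 5432 with both, and between 151 and 2361 without 1 library. Members called lower under TN numbered 7, against 14, 13, 29, 23 and 34 under the same settings (3.34% of all genes, against 7.15%, 3.22%, 15.3%, 10.7% and 19.2%), and between 0 and 19 without 1 library. For the difference between the stressors 0 genes were called, against 2 with DESeq2 and 25 without a filter, and between 0 and 4 without 1 library, while 0 members were called throughout. The causes were not tested.

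The OA numbers were not taken as pairs, since same-numbered deviations correlated at 0.62, 0.54 and 0.09, although each OA library correlated best with its own number. Values above 0 arose for a few members that lay near 0. TAF1D gave 0.60 (OA) and 0.31 (TN) with the GC offset, 0.53 and 0.25 with the GC offset and the block, and between -0.17 and 0.22 (OA) and between -0.18 and 0.15 (TN) without 1 library. With 1 library left out, POLR1C under OA lay between -0.36 and 0.052, BYSL under OA between -0.43 and 0.023, and RRN3 under TN between -0.52 and 0.0083. POLR1C and BYSL were above 0 without OA DMSO 2 or OA 1, and RRN3 without TN 1.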
